A study of Mus musculus with 37 samples.

Results

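Ccr2-high and Ccr2-negative macrophages of obese mouse fat were compared cell by cell. The cells were chosen by their measured Ccr2 level. Cells with Ccr2 at 5 FPKM or more were taken as Ccr2-high, and cells below 1 FPKM as Ccr2-negative. Of 37 cells in all, 12 were Ccr2-high and 22 Ccr2-negative. Cell 3, at 4.99 FPKM, lay between the limits, and cells 7 and 27, which carried fibroblast genes, were left out. FPKM are fragments counted per length of transcript and per number mapped. Every cell carried the label of an adipose tissue macrophage (ATM), from the eWAT (epididymal white adipose tissue) of C57BL/6J males fed a high-fat diet, and was captured singly on a Fluidigm C1 chip after sorting. Fat made up 60% of the diet's energy, carbohydrate 20% and protein 20%, and the tissue spent 30 min in collagenase. No group on another diet was analysed here. The sources used here do not give the sorting gate, the time on the diet or the animal behind each cell. The cells therefore count as 1 sample, they are not replicates, and neither a p-value nor a standard error was drawn from them.

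Ccr2 is the receptor for the chemokine Ccl2 and related ligands, and it draws classical monocytes from the blood into tissues. Monocytes that mature into tissue macrophages usually lose it. In fat, recruited Ccr2-positive cells gather during obesity, while resident macrophages are known for scavenger and endocytic receptors, among them stabilin-1 (Stab1), the folate receptor Folr2 and the mannose receptor Mrc1.

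Because Ccr2 chose the sides, its values are a description. Ccr2 ran from 5.64 to 220 FPKM in the Ccr2-high cells, with a median of 77.9, and from 0 to 0.812 in the Ccr2-negative cells, with a median of 0.0563. The members nearest the limits were cell 2 at 5.64 FPKM, just inside the high side, and cell 33 at 0.812, just inside the negative side. Cell 3 was just outside. It had Stab1 at 8.94 FPKM, Ear2 at 1.02 and Il1b listed at 0.

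Both sides carried macrophage genes. Of 15 macrophage genes, including Cd68, Csf1r and the complement genes C1qa, C1qb and C1qc, Ccr2-high cells had 8 to 14 at 1 FPKM or more and Ccr2-negative cells 10 to 15. The sum of the list ran from 8505 to 47552 FPKM in Ccr2-high cells and from 8680 to 38241 in Ccr2-negative cells. Emr1, which encodes the macrophage surface protein F4/80, was under 1 FPKM in cells 9 and 18 of the high side and in cell 26 of the negative side. Some genes of classical monocytes were not detected, or nearly so, on both sides. Plac8 and Hp were listed at 0 in all cells of both sides, and Ly6c2 reached 1 FPKM in 1 Ccr2-negative cell and no Ccr2-high cell. At least 3 genes of a dendritic cell list were detected in cells 2 and 18 of the high side and in 3 Ccr2-negative cells, while Flt3 and Ccr7 were listed at 0 throughout. Cell 18 had the fewest macrophage genes, 8, and the lowest sum, 8505 FPKM. Its C1qa was at 2.31 FPKM, C1qb at 4.62, C1qc at 1.63, Apoe at 24.8 and the dendritic cell gene Cd209a at 118. C1qb was higher in the left-out cells 7 and 27, at 39.5 and 30.2 FPKM. On the high side, cell 32 was lower in C1qa (0.715) and C1qc (1.42), and cells 25 and 36 in Apoe (15.9 and 17.3). Cd209a was higher, at 531 FPKM, in the Ccr2-negative cell 29, where C1qb was at 7467 and C1qa at 632. Whether cell 18 is a macrophage was not tested. No cell of either side had 3 genes of the fibroblast, neutrophil, eosinophil and mast cell, T, B, NK, endothelial, adipocyte, mesothelial or erythroid and platelet lists. Defining genes such as Cd3e, Cd79a, S100a8 and Adipoq were listed at 0.

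The sides overlapped in total FPKM and in the number of genes detected. The number of fragments per cell is unknown, since the table holds no counts. The FPKM of a cell summed to a median of 345674 on the high side and 303420 on the negative side, and medians of 1705 and 1766 genes reached 1 FPKM. The highest sums were 1.84e+06 on the high side and 1.22e+06 on the negative side. Of 35 cells, 3 had a sum over 2 times the median. A value of exactly 0 may stand for a failed estimate, as for Gapdh, a glycolytic enzyme that cells generally use, which was listed at 0 in 2 Ccr2-high cells. A gene at 0 is therefore called listed at 0.

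Il1b encodes the precursor of interleukin 1 beta, an inflammatory cytokine released after cleavage by inflammasome enzymes. It was detected, at 1 FPKM or more, in 6 of 12 Ccr2-high cells (50%, exact Clopper-Pearson 95% interval 21.1 to 78.9%) and in 2 of 22 Ccr2-negative cells (9.09%, 1.12 to 29.2%). These intervals cover the counting of cells only. On the high side the values ran from 0 to 289 FPKM with a median of 2.25, and on the negative side from 0 to 1.26 with a median of 0.0738. Cells 18, 9 and 36 were highest, at 289, 266 and 120 FPKM, followed by cell 32 at 23.7, cell 12 at 15.7 and cell 24 at 3.74. All 6 lay above every Ccr2-negative cell, while the other 6 Ccr2-high cells overlapped the negative side. The mean of log2(FPKM + 1) was 2.93 ± 3.31 (SD over 12 cells) against 0.22 ± 0.35 (SD over 22 cells), a difference of 2.71 log2 units. In this scale the added 1 shrinks the differences of low genes. The difference depended on few cells. Among cells with Emr1 at 1 FPKM or more, a setting that removes cells 9 and 18, it was 1.66, and among cells 20 to 36 it was 1.92. No other gene of the reference transcripts shared a 50-base stretch with Il1b.

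The promoter of Il1b is shown because this gene has a TATA box close to its start. The window holds 250 bases before the start site and 50 after it, at chr2:129371090-129371389 on the minus strand in RefSeq's GRCm38.p6. The deposited values were made on another build, mm9, and carry no promoter measurement. The letters TATAAA, in capitals, begin 31 bases before the start.
Il1b: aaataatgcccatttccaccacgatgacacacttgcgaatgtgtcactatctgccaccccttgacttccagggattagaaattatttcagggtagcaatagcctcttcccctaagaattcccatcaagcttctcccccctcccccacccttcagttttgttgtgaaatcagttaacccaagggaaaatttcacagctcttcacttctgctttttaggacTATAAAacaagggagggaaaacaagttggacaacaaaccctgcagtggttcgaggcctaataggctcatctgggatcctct
On either strand, TATAAA occurred in 13.6% of all 32851 RefSeq promoter windows of this length and in 7.48% of those of measured genes. No other match to TATAAA was in this window.

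Ear2 encodes an eosinophil-associated ribonuclease of the RNase A family. It had the largest difference of all genes measured, 4.08 log2 units, with means of 4.83 ± 4.22 in Ccr2-high cells and 0.75 ± 1.49 in Ccr2-negative cells. It was detected in 8 of 12 Ccr2-high cells (66.7%, 34.9 to 90.1%) and in 5 of 22 Ccr2-negative cells (22.7%, 7.82 to 45.4%). The FPKM ran from 0 to 1598 with a median of 73.4 on the high side, and from 0 to 115 with a median of 0.203 on the negative side. Cell 32, at 1598 FPKM, was highest, and 6 Ccr2-high cells lay above all Ccr2-negative cells. The sides overlapped in the other 6, of which 3 were listed at 0. Its relative Ear12 had a median of 1.78 FPKM on the high side, with a highest value of 494 in the same cell 32, and a highest value of 72.5 on the negative side, a difference of 2.33 log2 units. Ear12 was detected in 6 Ccr2-high cells, and in all 6 Ear2 was detected too. Of the other ribonucleases on this list, Rnase4 was lower by 2 or more (-2.57) and Ang differed by -1.04, so its 4 measured members split in direction. Ear2 and Ear12 cannot be read as independent. Of the 50-base stretches of Ear2 transcripts, 41.5% also occur in other genes, mostly Ear10, so the split of reads among the copies is uncertain. Ear1 reached no more than 0.524 FPKM and Ear10 no more than 0.213.

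The near-identity of the copies extends upstream of the genes. The Ear2 window lies at chr14:44102404-44102703 on the plus strand and the Ear1 window at chr14:43819590-43819889 on the minus strand, both in RefSeq's GRCm38.p6. They were identical at 294 of 297 aligned bases, or 99.0%, and the 3 aligned bases that differ are in capitals. The Ear2 window also holds an extra t that has no partner in Ear1 and is not in capitals.
Ear2: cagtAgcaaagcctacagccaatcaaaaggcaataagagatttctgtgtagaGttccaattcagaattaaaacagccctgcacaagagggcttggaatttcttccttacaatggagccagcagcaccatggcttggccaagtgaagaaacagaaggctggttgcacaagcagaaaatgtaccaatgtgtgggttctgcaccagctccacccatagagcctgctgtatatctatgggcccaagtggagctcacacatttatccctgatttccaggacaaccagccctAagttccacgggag
Ear1: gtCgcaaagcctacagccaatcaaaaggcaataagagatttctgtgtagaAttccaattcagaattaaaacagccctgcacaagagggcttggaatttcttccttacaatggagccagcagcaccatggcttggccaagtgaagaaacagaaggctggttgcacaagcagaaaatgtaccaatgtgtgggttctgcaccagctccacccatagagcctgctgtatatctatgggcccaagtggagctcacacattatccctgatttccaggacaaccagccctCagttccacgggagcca
The windows of Ear2 and Ear10 were 93.2% identical. The letters TATAAA were in neither strand of the Ear2 window.

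Stab1 encodes stabilin-1, a scavenger receptor that takes up modified lipoproteins and matrix products. It was detected in 15 of 22 Ccr2-negative cells (68.2%, 45.1 to 86.1%) and in 1 of 12 Ccr2-high cells (8.33%, 0.211 to 38.5%). In Ccr2-negative cells the FPKM ran from 0.0316 to 141 with a median of 7.03, and in Ccr2-high cells from 0 to 3.84 with a median of 0.0258. The single Ccr2-high cell with Stab1 was cell 2, which also had the lowest Ccr2 of its side. Of the Ccr2-negative cells, 14 lay above all Ccr2-high cells. The means were 0.24 ± 0.65 and 2.94 ± 2.24, a difference of -2.70 log2 units. A Ccr2-high cell drawn at random exceeded a Ccr2-negative cell drawn at random with a probability of 0.0568, the lowest of any measured gene. This rank is a description, since Stab1 was a marker chosen with earlier results of these data known. Dynlt3, a light chain of the dynein motor, had 0.150. Nt5dc2, a protein with a nucleotidase domain, had 0.148. Nt5dc2 overlaps the end of Stab1 by 112 bases on the other strand (GRCm38, chr14:31131053-31139124 and chr14:31139013-31168641), and whether the counting used strand is not stated. Over the 22 Ccr2-negative cells the Spearman correlation of Stab1 and Nt5dc2 was 0.10.

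The promoter window of Stab1 is shown as that of the gene with the lowest of these probabilities. It lies at chr14:31168592-31168891 on the minus strand in RefSeq's GRCm38.p6 and does not hold TATAAA on either strand.
Stab1: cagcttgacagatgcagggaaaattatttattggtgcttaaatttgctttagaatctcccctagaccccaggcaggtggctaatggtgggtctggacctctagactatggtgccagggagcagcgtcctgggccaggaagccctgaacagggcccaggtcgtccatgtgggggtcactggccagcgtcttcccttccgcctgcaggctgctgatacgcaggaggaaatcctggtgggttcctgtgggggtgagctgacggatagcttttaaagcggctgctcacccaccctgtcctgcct

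**Figure D1:**
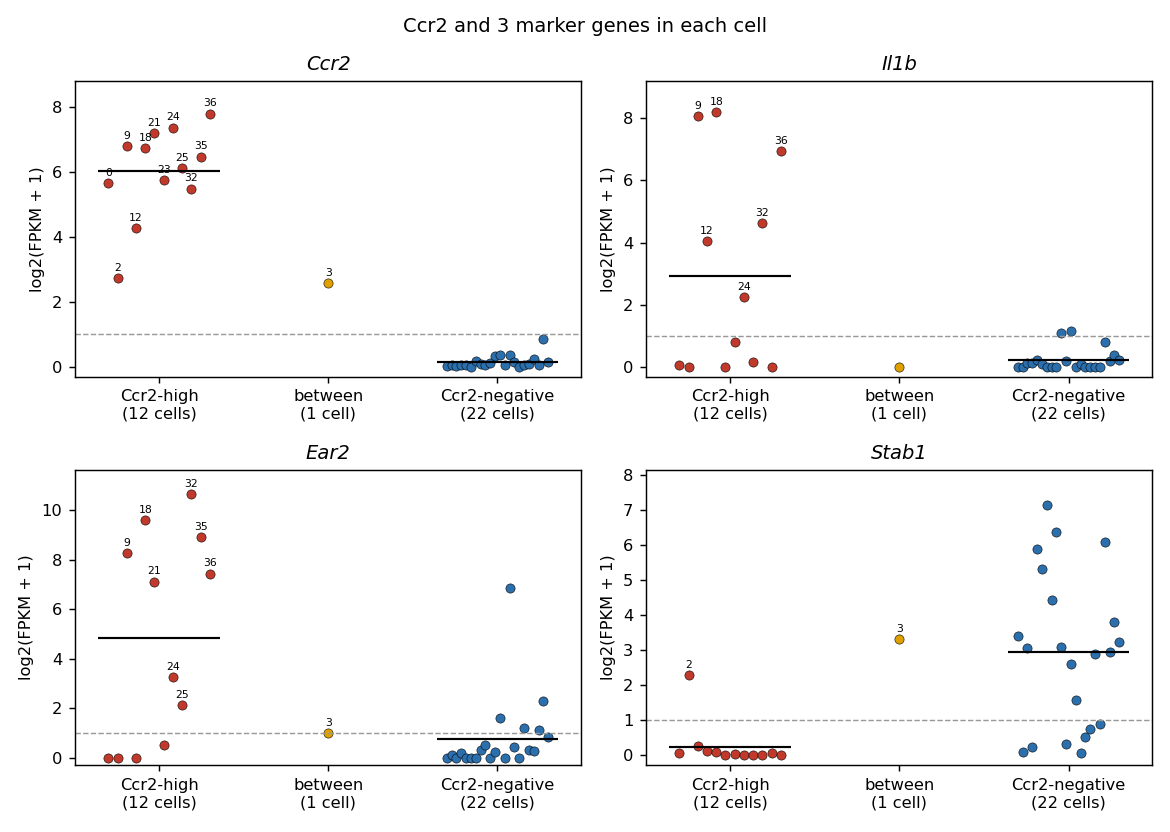
Each point is 1 cell, with log2(FPKM + 1) of Ccr2, Il1b, Ear2 or Stab1 on the vertical axis and the side on the horizontal axis; bars are means over 12 or 22 cells, small figures are cell numbers, and the dashed line marks 1 FPKM. Il1b is high in 6 Ccr2-high cells and at most 1.26 FPKM in Ccr2-negative cells, while Stab1 passes 1 FPKM in only 1 Ccr2-high cell.

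Across the table, 4368 genes besides Ccr2 were measured, at 1 FPKM or more in at least 5 of 35 cells. Of these, 49 (1.12%) were higher in Ccr2-high cells by 2 log2 units or more and 80 (1.83%) were lower by as much, 129 (2.95%) in either direction. The limit of 2 is a rule of size and not a test. When each gene's values were redrawn at random over the cells, to check the code, genes with no difference built in passed the limit at a share close to that of the real genes. Passing it therefore does not set a gene apart from the spread between cells, and the counts describe these cells only. The median difference over all measured genes was -0.09, and 2401 genes were below 0. The filter counts the cells of both sides together. A gene detected on 1 side only had to reach 5 of 12 Ccr2-high cells or 5 of 22 Ccr2-negative cells. Genes of the Ccr2-negative side thus entered more readily, and the counts in each direction may carry this tilt. The split of higher and lower genes moved with the scaling. It was 49 to 80 as deposited (38.0% higher), 38 to 90 with all cells scaled to the same FPKM sum (29.7% higher) and 65 to 44 with median-of-ratios size factors (59.6% higher). Leaving out 1 cell at a time gave 48 to 74 higher genes, the most without cell 23, and 69 to 99 lower genes. Besides Ccr2, no gene had a probability of 0.8 or more (0% of those measured) and 9 (0.206%) had 0.2 or less.

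**Figure D2:**
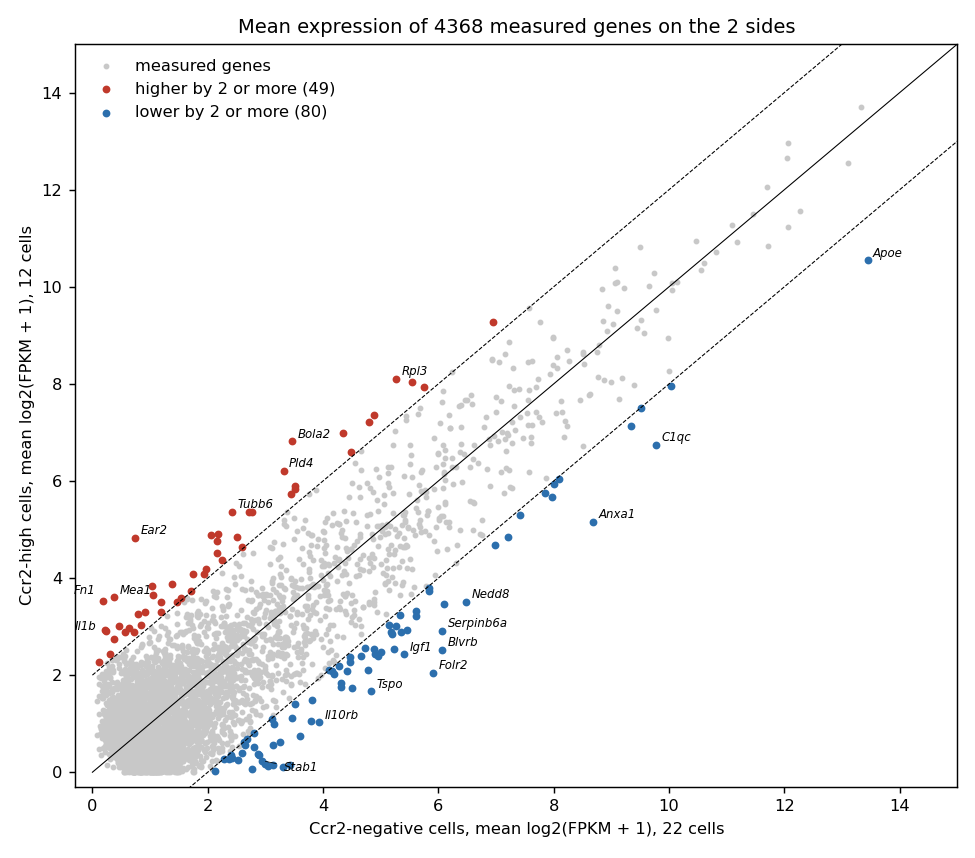
Each point is 1 of 4368 measured genes, with its mean log2(FPKM + 1) over 22 Ccr2-negative cells on the horizontal axis and over 12 Ccr2-high cells on the vertical axis; the dashed lines mark a difference of 2. Ear2, Fn1 and Il1b lie at the left edge among the 49 higher genes, and Folr2, Blvrb, C1qc and Apoe are among the 80 lower ones.

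The genes highest in Ccr2-high cells after Ear2 had mixed roles. Fn1, which encodes the matrix protein fibronectin, was detected in 7 of 12 Ccr2-high cells and 1 of 22 Ccr2-negative cells. Its highest values were 376 FPKM in cell 9 and 238 in cell 2, against at most 1.37 on the negative side, and the difference was 3.34. All 7 positive cells lay above the whole negative side. Mea1 had a similar form, with 6 Ccr2-high cells above all Ccr2-negative cells, a highest value of 9497 FPKM in cell 2 and a difference of 3.23. Pld4, an endolysosomal nuclease, had medians of 189 and 8.21 FPKM and a difference of 2.89. Psmb8, a subunit of the immunoproteasome, had medians of 96.0 and 0.453 FPKM and a difference of 2.83. Cytip, which binds the integrin regulator cytohesin, was detected in 9 of 12 and 6 of 22 cells and had a difference of 2.79.

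Others in this set were genes that most cells use. Rpl3, a ribosomal protein, had medians of 658 and 67.9 FPKM and a difference of 2.84, but 35.03% of its 50-base stretches occur in other genes, mostly a processed copy. Bola2 (3.36), the tubulin Tubb6 (2.94), the antioxidant protein Park7 (2.72) and the respiratory chain subunit Cox6b1 (2.65) completed the group, each with overlapping sides. Bcl2a1d, a survival gene of the Bcl2 family, differed by 2.68. It shares 79.5% of its 50-base stretches with other genes, chiefly Bcl2a1a, so its value is uncertain. Ifi27l2a, an interferon-induced gene, was detected in 10 of 12 and 10 of 22 cells, with a difference of 2.63. Ier3, an early response gene, differed by 2.59 and was detected in 8 of 12 and 10 of 22 cells. Without cell 2, Bcl2a1d differed by 1.99 and Ifi27l2a by 1.96, both under the limit. With medians in place of means, Bcl2a1d differed by 0.55.

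Ranked by probability, 10 further genes led on the high side. Icam1, an adhesion molecule induced by NF-kB, was detected in 6 of 12 and 2 of 22 cells, reached 1085 FPKM in cell 12 and differed by 2.56. Irak4, a kinase of interleukin 1 and Toll-like receptor signalling, was detected in 10 of 12 and 10 of 22 cells, with medians of 51.5 and 0.439 FPKM and a difference of 2.37. Ier5, another early response gene, differed by 2.31, the dynactin subunit Actr1a by 2.12 and the seryl-tRNA synthetase Sars by 2.12. Single cells carried several of these past the limit. Icam1 was at 1.92 without cell 12, and at 0.84 with medians in place of means. Ier5 was at 1.92 without cell 0 and 1.98 without cell 9. Actr1a was at 1.67 without cell 2, 1.68 without cell 21 and 1.90 without cell 35, and Sars at 1.74, 1.80 and 1.88 without the same cells. With all cells scaled to the same FPKM sum, Actr1a and Sars were also under 2, at 1.87 and 1.85. Irak4 stayed above 2 with any 1 cell left out. Sp110 (1.93), Rps26 (1.99), Rpl4 (just under 2), Degs2 (1.37) and Mycbp2 (1.00) did not reach 2. Leaving out 1 cell took Rpl4 as high as 2.38, Rps26 to 2.28 and Sp110 to 2.22.

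The genes lowest in Ccr2-high cells included several of resident macrophages. Folr2, a folate receptor of tissue-resident macrophages, was detected in 17 of 22 Ccr2-negative and 5 of 12 Ccr2-high cells. Its FPKM ran from 0.201 to 1564 with a median of 173 on the negative side, and from 0 to 599, in cell 25, with a median of 0.632 on the high side. The difference, -3.86, was the largest in this direction, and 52.6% of its 50-base stretches also occur in the gene model Gm10602. Igf1, a growth factor made by tissue macrophages, had medians of 84.9 and 1.84 FPKM and a difference of -2.97. It was detected in 17 of 22 and 6 of 12 cells, with a highest value of 258 FPKM on the high side in cell 35. The sides overlapped for both genes.

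Blvrb and Hmox1, enzymes of heme breakdown and its products, were both lower in Ccr2-high cells. Hmox1, heme oxygenase 1, was detected in 10 of 22 Ccr2-negative cells and in none of 12 Ccr2-high cells, where the highest value was 0.867 FPKM. The exact interval for 0 of 12 reaches 26.5%. Its highest Ccr2-negative values were 667 and 645 FPKM, the median was 0.361, and the difference was -2.92. With medians in place of means it was -0.44, since Hmox1 was under 1 FPKM in 12 of 22 Ccr2-negative cells. Blvrb, biliverdin reductase B, had medians of 114 and 2.06 FPKM and a difference of -3.55, with detection in 19 of 22 and 6 of 12 cells. Its highest value on either side, 3953 FPKM, was in the Ccr2-high cell 24, so the sides overlapped.

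Among abundant genes, C1qc, a chain of the complement component C1q, was detected in every cell. Its median was 850 FPKM in Ccr2-negative cells, with a lowest value of 122, and 158 in Ccr2-high cells, with a lowest value of 1.42. The difference was -3.04, and -1.96 among cells with Emr1 at 1 FPKM or more. The other C1q chains differed less, C1qa by -2.20 and C1qb by -0.89. Apoe, the lipid carrier apolipoprotein E, had medians of 13594 and 5358 FPKM and a difference of -2.90, or -1.59 by medians. Its lowest Ccr2-negative value was 1162 FPKM, whereas the lowest Ccr2-high value was 15.9. Anxa1, the anti-inflammatory annexin A1, had medians of 459 and 71.5 FPKM and a difference of -3.52. Its lowest value among the 22 Ccr2-negative cells was 6.56 FPKM. For C1qc, Apoe and Anxa1 the upper ends of the sides overlapped and the Ccr2-high side held the low cells.

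The remaining genes of this set differed by -2.85 to -3.28 log2 units. They were Chchd1, Rcn3, Tspo, Serpinb6a, Fxyd2, Nedd8, Il10rb and Ttyh2. Tspo, a cholesterol-binding protein of the outer mitochondrial membrane, was detected in 18 of 22 and 4 of 12 cells. Il10rb, a receptor chain for interleukin 10, was detected in 19 of 22 and 4 of 12, with a highest Ccr2-high value of 20.7 FPKM. Rcn3 and Fxyd2 were under 1 FPKM in all 12 Ccr2-high cells. By probability, Rtn4, a protein of the endoplasmic reticulum, was detected in all 22 Ccr2-negative and 7 of 12 Ccr2-high cells and differed by -2.55. Atp6v1e1, a subunit of the proton pump that acidifies lysosomes, differed by -2.56. Anpep (-1.90), Kif1b (-1.84), Rras (-1.76), Dynlt3 (-1.49), Ankle2 (-1.38), Tgfbr2 (-1.22) and Nt5dc2 (-1.19) did not reach 2. Dynlt3 was at -2.22 without cell 2. Rras was listed at 0 in all 12 Ccr2-high cells.

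**Figure D3:**
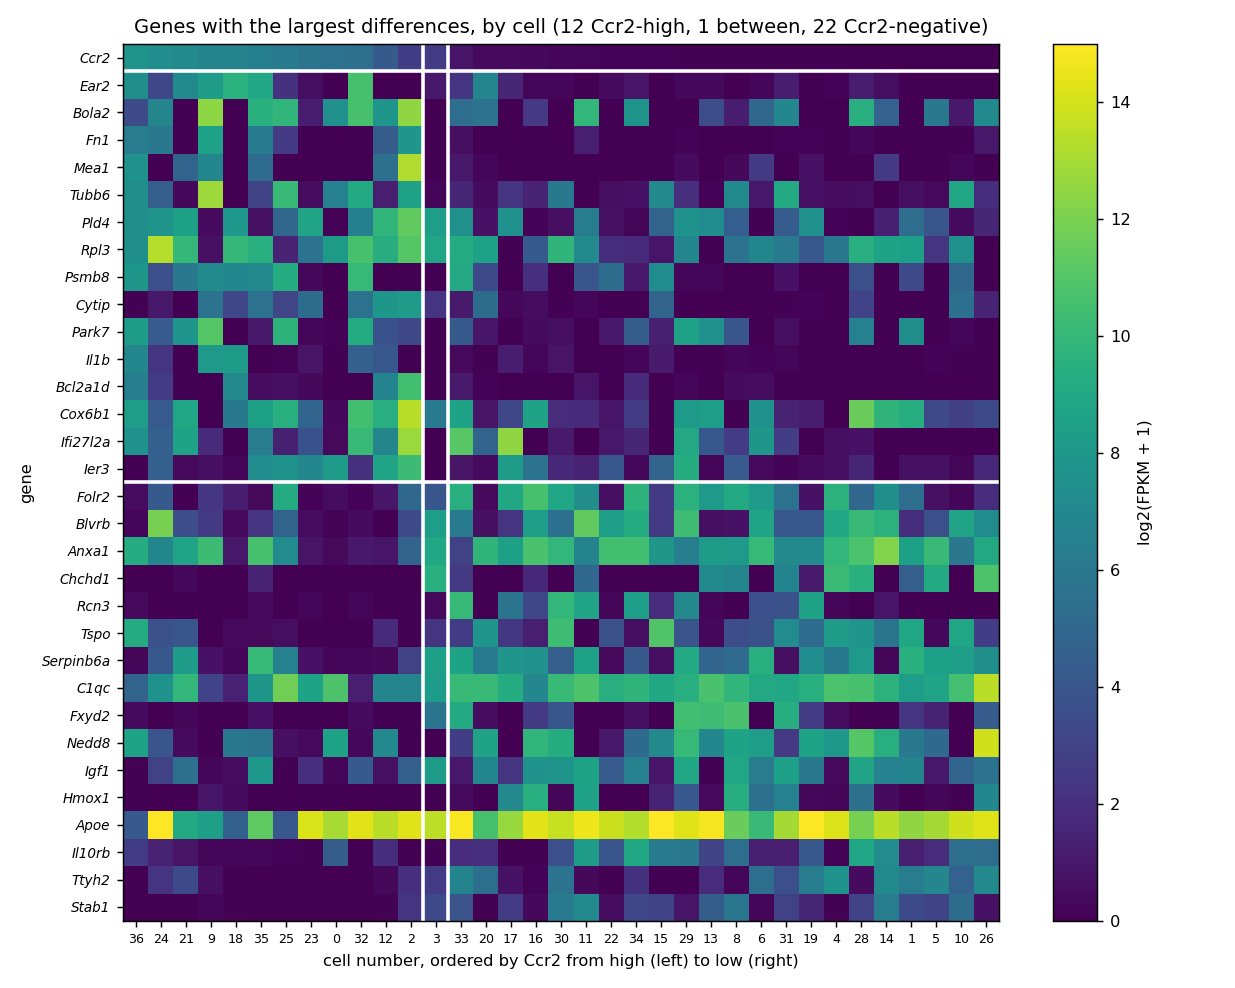
Colour gives log2(FPKM + 1) of Ccr2, the 15 genes with the largest and the 15 with the smallest difference, and Stab1 (rows) in 35 cells (columns), ordered by Ccr2; white lines separate the 12 Ccr2-high cells, cell 3 and the 22 Ccr2-negative cells. Each gene varies widely within its side, and cell 3 between the sides has Stab1 at 8.94 FPKM.

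Listed by function, scavenger and resident receptor genes had lower means in Ccr2-high cells for the most part. Of 20 measured, 17 had a difference below 0, against 2401 of 4368 genes in all. Stab1, Folr2 and Igf1, 3 of the 20, were lower by 2 or more, against 1.83% of all genes, and none was higher by as much. The median was -0.87, against -0.09 over all measured genes, and -1.05 and -0.71 under the other scalings. This list holds genes chosen with these data known, the marker Stab1 among them. The filter admitted Gas6 through the Ccr2-negative side alone, so the tilt of the filter may enter these counts, which are a description. Mrc1, the mannose receptor CD206, was detected in 20 of 22 and 11 of 12 cells and differed by -1.55. Sepp1, the selenium carrier selenoprotein P, was detected in every cell and differed by -1.74. Lyve1, a hyaluronan receptor, was detected in 3 Ccr2-negative cells and no Ccr2-high cell, Cd163, the hemoglobin receptor, in 5 of 22 and 1 of 12. Gas6, a bridging ligand for uptake of dying cells, was detected in 7 of 22 cells and none of 12.

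For genes of lipid-associated, CD9-positive macrophages, 14 of 17 measured were below 0, against 2401 of 4368 in all. Of the 17, 4 were lower by 2 or more, against 1.83% of all genes, namely Apoe, the fatty acid binding protein Fabp5 (-2.17), the fatty acid transporter Cd36 (-2.09) and the tetraspanin Cd63 (-2.07). The median was -1.34, against -0.09 over all measured genes. It was -2.39 among cells 0 to 19 and -0.75 among cells 20 to 36. Cd9 itself was detected in 17 of 22 and 8 of 12 cells and differed by -1.50, Trem2, a lipid-sensing receptor, by -1.34, and the lipid droplet protein Plin2 by -1.28. Spp1, osteopontin, was detected in 5 Ccr2-negative cells and no Ccr2-high cell, and Lgals3, galectin-3, differed by 0.24. Spp1 passed the filter through the Ccr2-negative side alone, so the tilt of the filter may enter the counts of this list too. Of 18 lysosomal genes, Ctsz was lower by 2 or more (-2.31) and none was higher by 2, with a median of -0.16.

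For interleukin 1 and the inflammasome, 5 genes were measured, with a median of 0.56 that was -0.11 among cells 0 to 19 and 1.43 by medians of the cells. Besides Il1b, Nlrp3, the sensor of the inflammasome, was detected in 7 of 12 and 2 of 22 cells, reached 295 FPKM in cell 0 and differed by 1.90. Casp1, the enzyme that cleaves the Il1b product, was detected in 1 of 12 and 5 of 22 cells. Of 16 inflammatory cytokine and NF-kB genes, Icam1 alone passed 2, and the median was 0.28. Tnf was detected in 6 of 12 and 3 of 22 cells and differed by 1.49, Ccl4 by 1.73 and Nfkbia by 1.39, while Nfkbiz, at -0.68, and Tnfaip3, at -0.86, had the other sign. The Ccr2 ligands Ccl2, Ccl7 and Ccl12 did not mirror their receptor. Ccl2 differed by -0.71, Ccl7 by -0.06 and Ccl12 by -0.16. Ccl8, another chemokine gene, differed by -1.75.

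Monocyte-like genes did not lean together. Of 9 measured among 24 in the table, Fn1 was higher by 2 or more, the Fc receptor Fcgr4 was lower (-2.01), and the median was 0.10. This median changed sign with the setting. It was -0.18 with all cells scaled to the same FPKM sum, -0.76 among cells 0 to 19 and 0.52 with cells 7 and 27 kept, and ran from -0.23 to 0.55 with 1 cell left out. Cx3cr1, a receptor of patrolling monocytes, was detected in 4 Ccr2-high cells, up to 372 FPKM, and in no Ccr2-negative cell. Napsa was detected in 3 Ccr2-high cells and no Ccr2-negative cell. Neither Cx3cr1 nor Napsa passed the filter for measured genes. S100a6 differed by 1.73 and S100a4 by 1.37, while Mgst1 differed by -1.20 and Cd44 by -1.12. Itgam (0.31), Cybb (0.10) and Ifitm3 (-0.03) differed little. Of the MHC class II genes, which present antigen, 8 were measured and none passed 2. Their median was 0.50, with 1.26 among cells 0 to 19 and -0.67 among cells 20 to 36. Cd74, the invariant chain, was detected in every cell, with medians of 7989 FPKM on the high side and 5646 on the negative side.

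Housekeeping lists give the level at which lists without a link to Ccr2 lay. Ribosomal protein genes had a median of 0.42 over 20 genes, with Rpl3 past 2, and the FPKM of the list summed to a median of 14804 on the high side and 7447 on the negative side. Respiratory chain genes had a median of 0.11 over 22, glycolysis genes 0.04 over 10 and other housekeeping genes 0.32 over 9. The medians of the interleukin 1, inflammatory and MHC class II lists were thus of the size of the ribosomal median. The part of this shift in the genes higher in Ccr2-high cells was not tested.

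**Figure D4:**
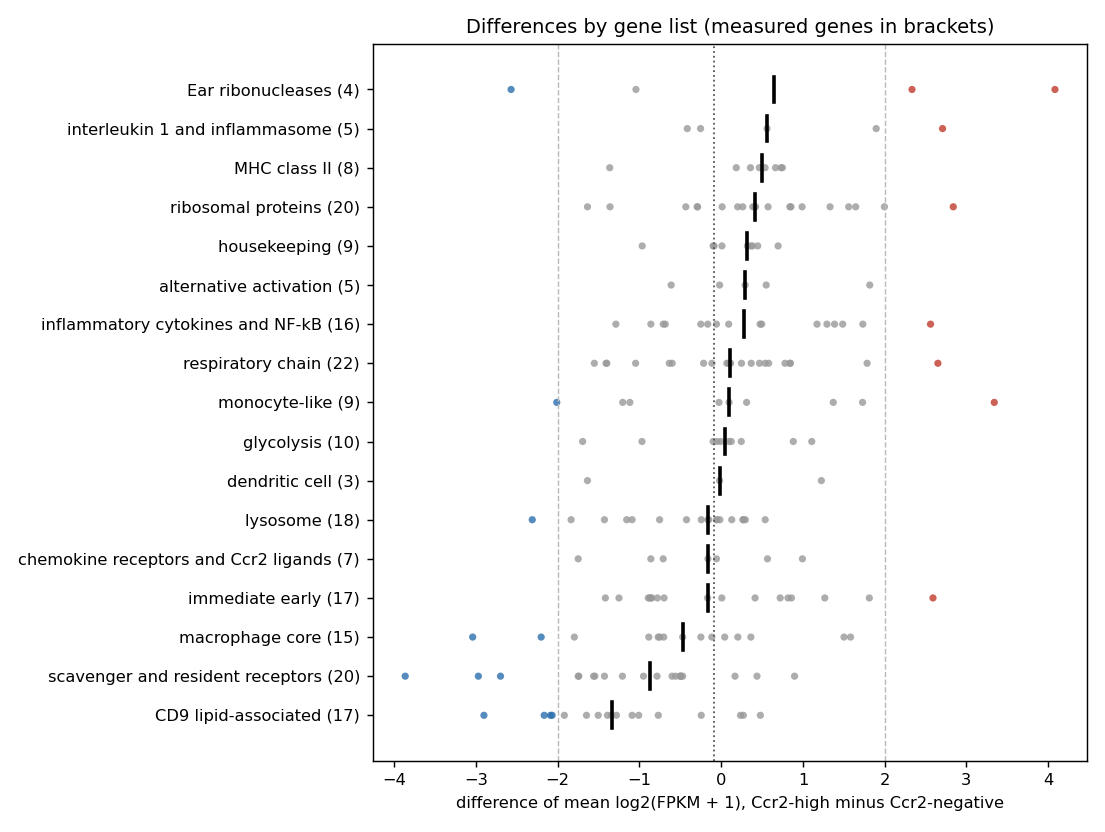
Points are measured genes, by list, on the difference of mean log2(FPKM + 1) between Ccr2-high and Ccr2-negative cells; black bars are list medians, the dotted line is the median of all measured genes, and dashed lines mark 2 log2 units. Medians run from -1.34 for CD9 lipid-associated genes to 0.65 for the list of Ear ribonucleases, whose 4 measured members are Ear2 and Ear12 (above 0) and Rnase4 and Ang (below 0).

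Within a side, the named genes mostly did not vary together. Correlations here are Spearman's, over cells of 1 side, and describe these cells, which share depth and zeros. Over 22 Ccr2-negative cells Stab1 correlated with Folr2 at 0.04, with Igf1 at 0.13, with Hmox1 at 0.05 and with Mrc1 at 0.46. Over all measured genes the correlation with Stab1 had a median of 0.01, and it ran from -0.36 to 0.37 between the 5th and the 95th percentile. Stab1 and Folr2 were detected together in 12 cells, where the product of their shares gives 11.6. Hmox1 and Blvrb correlated at 0.10. Over 12 Ccr2-high cells Il1b correlated with Ear2 at 0.46, with Fn1 at 0.04, with Nlrp3 at -0.02 and with Ier3 at -0.57. All measured genes had a median of -0.09 with Il1b, and ran from -0.57 to 0.43 between the same percentiles. Il1b and Ear2 were both detected in cells 9, 18, 24, 32 and 36, where the product of shares gives 4 cells. Ear2 correlated with Ear12 at 0.87 and with Psmb8 at 0.78.

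No single cell held either set whole. Of the 15 genes with the largest difference, Ccr2-high cells had 4 to 14 detected and Ccr2-negative cells 1 to 12. Of the 15 with the smallest difference, Ccr2-negative cells had 7 to 14 detected and Ccr2-high cells 3 to 11. These counts were fixed in part by choosing the genes on the same cells.

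An earlier search of the low values placed a putative break between library parts after cell 19, which the labels do not give. The side counts were 5 Ccr2-high and 13 Ccr2-negative cells among cells 0 to 19, and 7 and 9 among cells 20 to 36. The parts share no cells, so the comparison could be made in each. Among the 4368 genes, 318 were lower by 2 or more in the first part and 149 in the second, and 32 were lower in both (10.1% and 21.5% of each). The corresponding counts for higher genes were 200, 224 and 13 (6.5% and 5.80%). Genes past 2 in opposite directions were nearly as common, since 30 were lower in the first part and higher in the second and 8 the reverse. The 32 lower in both included Stab1, Folr2, Igf1, Hmox1, Blvrb, Apoe, C1qc, Anxa1, Tspo and the ribonuclease Rnase4, and the 13 higher in both included Ear2, Fn1, Mea1, Pld4, Irak4 and Rpl3. Most of these genes were named from the cells of both parts together, so their place in both was fixed in part by that choice. Il1b differed by 3.84 in the first part and by 1.92 in the second.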

How the data were processed

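RNA of 37 single cells was measured, and each labelled sample is 1 cell. The deposited values are FPKM in 1 table of 23947 genes. Per the submitters' processing notes, the authors used STAR, Cuffnorm and the mouse build mm9, with versions, annotation and strand setting not given in the sources used here. FPKM keep no fragment count, so depth is unknown and no count test was used. The rule for the sides uses Ccr2, so Ccr2 gave no result. The members and gene lists were chosen with earlier results of these data known.

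Values were transformed to log2(FPKM + 1). Detection meant 1 FPKM, and a measured gene had it in 5 or more cells. Differences are Ccr2-high minus Ccr2-negative means, called at 2 log2 units. Named genes were the 15 largest and the 15 smallest differences, the 10 highest and the 10 lowest probabilities not among these, the 4 markers, and members of the lists described. In all, 354 of 362 genes in 28 lists were matched. Promoter windows came from RefSeq (44 of 53 named genes matched), and shared 50-base stretches from GENCODE transcripts of GRCm38, on both strands. Doublets were not called, as callers need counts. The code ran on Python 3.11.15 with pandas 2.3.3 and SciPy 1.17.1 and was tested on simulated data. Alternatives changed the pseudocount, filter, limits, scaling, summary and cells, and each cell was left out in turn.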

Additional observations from a re-analysis of the deposited data

How the results depend on the processing

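The count of higher genes, 49, became 195 with a pseudocount of 0.1, 80 with Ccr2-negative cells taken below 0.1 FPKM, 134 with medians in place of means, 143 among cells 0 to 19, 179 among cells 20 to 36 and 78 among cells with Emr1 at 1 FPKM or more. Leaving out each cell in turn gave 48 to 74. The count of lower genes, 80, became 288 with a pseudocount of 0.1, 166 with medians, 44 with size factors, 313 among cells 0 to 19 and 125 among cells 20 to 36, and 69 to 99 with each cell left out. The counts for the cells of 1 part apply the filter within that part. Of the 49 higher genes, 35 passed with medians and 48 with size factors, and of the 80 lower genes 51 and 44. The Il1b difference was 1.43 with medians, 1.92 among cells 20 to 36 and 1.66 with Emr1 at 1 FPKM or more, and 2.23 to 2.97 with each cell left out. Ear2 ran from 3.22 to 5.15 and Stab1 from -4.77 to -2.31 over the other settings, always past 2, and from 3.55 to 4.52 and -2.88 to -2.50 with each cell left out. List medians that moved by at least the SD of their members' differences were those of CD9 lipid-associated genes (-2.39), lysosomal genes (-0.99) and respiratory chain genes (-1.04) among cells 0 to 19, MHC class II genes (1.26 among cells 0 to 19 and -0.67 among cells 20 to 36) and dendritic cell genes (-1.47 among cells 20 to 36). Lists with a wide spread of members stayed under that SD while moving far, namely the Ear ribonucleases (0.02 to 2.90), interleukin 1 and inflammasome genes (-0.11 to 1.43) and monocyte-like genes (-0.76 to 0.52). Among Il1b, Ear2, Stab1 and the genes named by difference or probability, no called difference changed sign. Of all 49 higher genes, 47 kept their sign both among cells 0 to 19 and among cells 20 to 36, and of the 80 lower genes 79 did. These genes were called on the cells of both parts together, so their signs were largely fixed by that choice. Only 13 higher and 31 lower genes of these calls passed 2 in both parts. Counting each pair of a gene and a setting, the other genes named by difference or probability kept their side of 2 in 2117 pairs. They came under it in 51 and passed it in 80. No paired analysis was possible because all cells carry 1 label and the sides share no replicate numbers. With 12 and 22 cells and unknown depth, a gene listed at 0 may be present.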
